A study of Mus musculus with 8 samples.

Results

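Collagen genes are described here in pancreatic islets of mice lacking Wfs1 and of wild-type mice. The members were all genes of the deposited count table whose symbol was Col, a number, the letter a and a number, and 44 of the 24537 genes in the table met this rule. They were divided by the kind of assembly their chains form into 11 fibrillar genes, 8 basement membrane genes (types IV, XV and XVIII) and 25 others. Islets came from 12-week-old male mice, were freed by collagenase delivered through the duct and purified on a density gradient, and polyadenylated RNA was sequenced. There were 4 samples labelled WT and 4 labelled Wfs1KO, all untreated and numbered 1 to 4 within each genotype. The Wfs1 product, wolframin, sits in the membrane of the endoplasmic reticulum, and its loss causes Wolfram syndrome with diabetes. The strain, the allele, the litters and whether a sample was 1 mouse or a pool are not given in the sources used here, so p-values measure only the spread between these samples.

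A collagen is a protein of 3 chains wound into a triple helix, held together by glycine recurring at a fixed spacing. Fibrillar collagens (types I, II, III, V, XI, XXIV and XXVII) pack into fibrils that bear tension, and fibroblasts and stellate cells are known sources of them. Type IV collagen is the network former of basement membranes, and in islets the capillary endothelium and the pericytes around it lie on such a membrane. Chains are hydroxylated, folded and bundled in the endoplasmic reticulum before export, and each type has its own set of partner chains.

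The repeat that defines the family is shown for 3 members, since the classes differ in how far it runs unbroken. Each line gives 5 triplets of the coding sequence of the GENCODE M21 transcript, 5′ to 3′. The glycine codon (GGN) that opens each triplet is in capitals, and any other glycine codon is in lower case.
Col1a2: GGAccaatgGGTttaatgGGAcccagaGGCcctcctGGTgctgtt
Col4a5: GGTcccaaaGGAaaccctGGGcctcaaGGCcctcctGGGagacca
Col6a6: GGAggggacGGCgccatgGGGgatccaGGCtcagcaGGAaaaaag
The Col1a2 stretch covers coding bases 289 to 333, the Col4a5 stretch bases 3745 to 3789 and the Col6a6 stretch bases 4171 to 4215. In the 11 fibrillar genes the longest unbroken run of such triplets was 216 to 344 long, with a median of 338. In the 8 basement membrane genes it was 30 to 66 triplets (median 41), and in the 25 others 23 to 113 (median 52). Col4a5 had 23 separate runs of at least 5 triplets, and its longest run was 42 triplets, as was that of Col6a6.

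The libraries held 15810830 to 27057617 counts in exons, and collagen genes took 8579 to 18425 of these, or 0.0543% to 0.0681%. Levels are given as CPM (counts scaled to a common library total) scaled with TMM factors, and levels of different genes are compared only as CPM per kb of gene length. Wfs1 itself was lower in every Wfs1KO library than in any WT library, at 0.599 times the WT mean, and which part of the gene the allele removes is not given in the sources used here. Of aligned tags, 59.95% to 66.9% lay in exons in replicates 1 and 2 and 71.9% to 76.5% in replicates 3 and 4, in both genotypes. The first principal component of all genes (37.9% of the variance) separated replicates 1 and 2 from 3 and 4, and the second (28.4%) the genotypes. Values within each of these replicate pairs are given for some of the genes and lists, and no label names the pairs as batches.

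Most collagen genes were expressed at a low level. Only 15 of the 44 averaged 1 CPM per kb or more over the 8 libraries, and 29 were below it. A few genes held most of the collagen RNA. Col6a6, a type VI chain, stood at 26.9 CPM per kb in WT and 22.6 in Wfs1KO, and Col4a1 at 22.2 and 22.6. Col4a2, the partner chain of Col4a1, followed at 13.4 and 16.1 CPM per kb. Col6a6 alone took 21.4% to 35.7% of the collagen CPM of a library. Behind these came Col13a1, Col15a1, Col3a1, Col1a2, Col27a1 and Col9a2, each between 2 and 5.1 CPM per kb in both genotypes. The 7 genes too low to test (Col2a1, Col4a6, Col9a1, Col10a1, Col17a1, Col22a1 and Col24a1) reached no more than 0.770 CPM in any library.

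**Figure D1:**
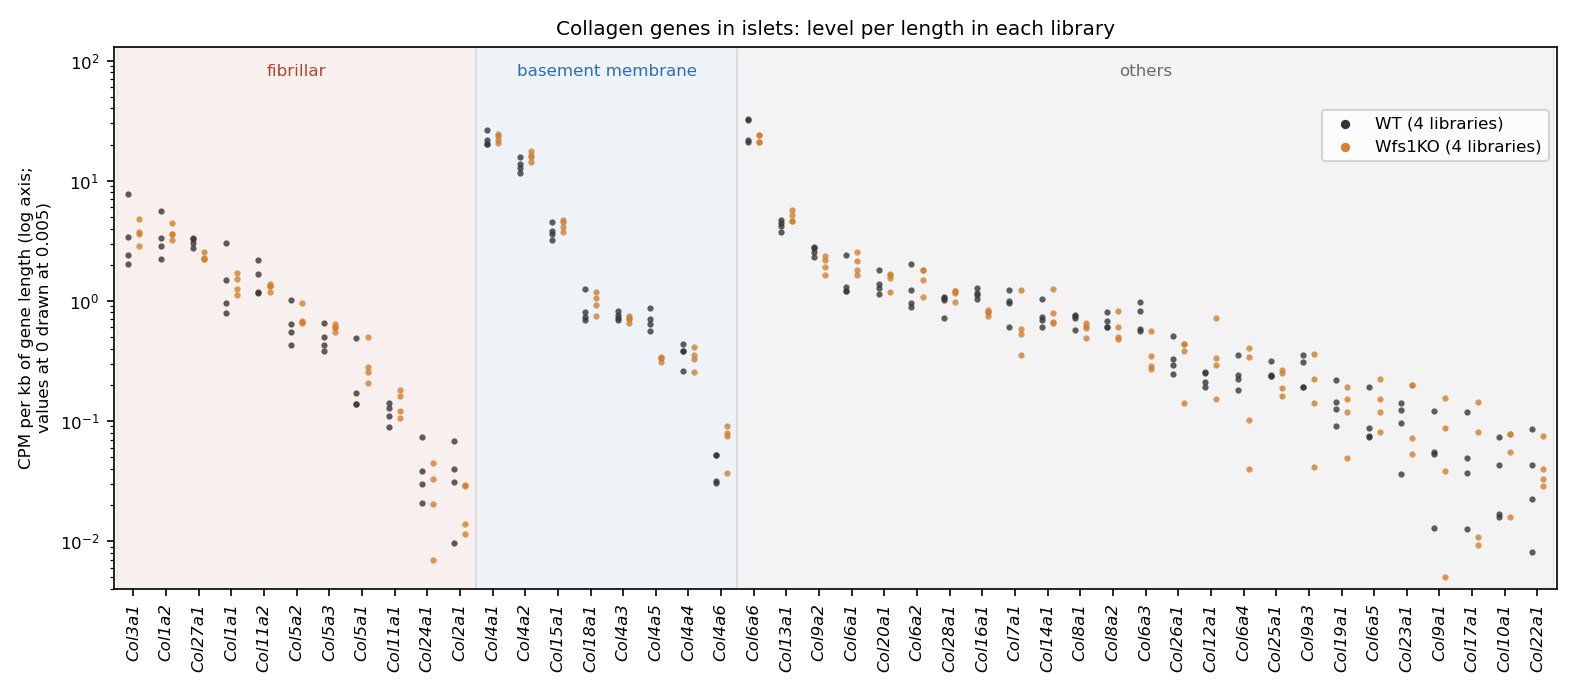
Level of each of the 44 collagen genes in each library, as CPM per kb of gene length on a log axis, with genes ordered within each class and 1 point per library (WT dark, Wfs1KO orange). Col6a6 and Col4a1 were the highest, with means of 22.2 to 26.9 CPM per kb, and 29 genes averaged below 1 CPM per kb.

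Between genotypes, 4 of the 37 collagen genes that could be tested fell in Wfs1KO islets and none rose. The 4 were Col4a5 (basement membrane), Col27a1 (fibrillar), Col16a1 and Col6a3 (others). Over all 15733 genes tested by edgeR's quasi-likelihood test with Benjamini-Hochberg adjustment, 18.9% passed an adjusted p of 0.05, 10.4% higher and 8.49% lower, so the share of collagen genes that fell was near the background and the share that rose was below it. The median log2 fold change was 0.02 over the 37 collagen genes and 0.01 over all genes tested. At an unadjusted p under 0.05 there were 7 collagen genes, a count given without the share of all genes at that cut. DESeq2 called Col4a2 higher in addition to the same count of 4 lower. The same 4 genes were those whose WT and Wfs1KO libraries did not overlap, against 22.6% of all genes tested that did not overlap and 10.3% that did not and were lower. In the authors' deposited table the same 4 collagen genes had an adjusted p under 0.05, all with negative log2 fold changes.

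**Figure D2:**
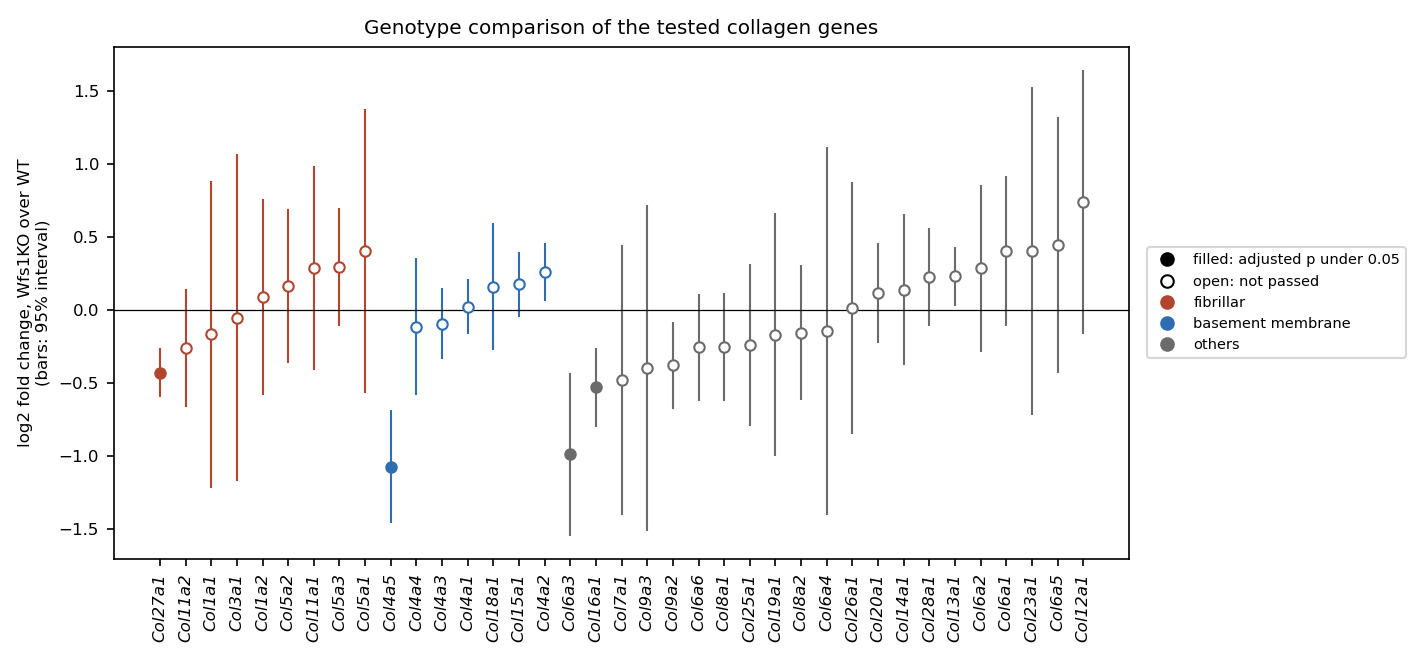
Log2 fold change (Wfs1KO over WT, 4 against 4 libraries) of the 37 tested collagen genes by class, with 95% intervals. Filled points passed an adjusted p of 0.05; they are Col27a1, Col4a5, Col6a3 and Col16a1, all below 0.

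Col4a5 showed the lowest fold change of all 37. It encodes the type IV chain that joins Col4a3 and Col4a4 chains in the mature kidney filter, where its loss causes Alport syndrome, and it lies on the + strand at chrX:141475419-141689235 (mm10). It measured 4.52, 5.60, 4.12 and 3.58 CPM across the numbered WT libraries, and 2.17, 2.18, 2.13 and 1.98 CPM across those of Wfs1KO. The Wfs1KO libraries lay close together and all were below the lowest WT library. The means were 4.46 ± 0.854 CPM in WT and 2.12 ± 0.0928 CPM in Wfs1KO (SD, n = 4), a 2.11-fold lower level, from 37 to 97 counts per library. The log2 fold change was -1.07 (SE 0.18, adjusted p = 9.21e-04, edgeR), and it was called in each replicate pair, at -1.24 in replicates 1 and 2 and -0.91 in replicates 3 and 4.

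The 250 bases before the RefSeq start of Col4a5 are shown because this was the type IV gene that fell. They lie at chrX:141475169-141475418, + strand of GRCm38.p6 (the sequence of mm10), with a CCAAT box (CCAAT) and a GC box (GGGCGG) in capitals.
Col4a5 upstream: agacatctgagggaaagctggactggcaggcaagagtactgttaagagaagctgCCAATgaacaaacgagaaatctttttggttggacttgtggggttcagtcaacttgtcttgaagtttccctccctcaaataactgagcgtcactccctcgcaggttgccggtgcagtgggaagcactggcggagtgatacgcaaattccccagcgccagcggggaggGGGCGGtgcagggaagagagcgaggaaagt
Genes of type IV chains sit in head-to-head pairs, and the spacing differs between pairs. Col4a1 and Col4a2 share 22 bases of their first exons at chr8:11312805-11312826, given on the minus strand with a reversed GC box in capitals.
Col4a1 and Col4a2 shared bases: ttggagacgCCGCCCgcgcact
The starts of Col4a3 and Col4a4 are 71 bases apart, at chr1:82586850-82586920, given on the minus strand.
Col4a3 and Col4a4 gap: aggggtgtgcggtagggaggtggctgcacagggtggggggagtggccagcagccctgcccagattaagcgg
No CCAAT box, GC box or TATA box (TATAAA) was in those 71 bases on either strand. The starts of Col4a5 and Col4a6 are 1342 bases apart on chromosome X. G and C made up 72.7% of the Col4a1 and Col4a2 overlap, 69% of the Col4a3 and Col4a4 gap and 54% of the Col4a5 bases.

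Promoters of 300 bases from RefSeq were matched for 35 of the 44 collagen genes and searched for 5 motifs on both strands. The GC box was in 22 of the 35 (35.7% of all 32851 promoters), the CCAAT box in 13 (37.4%) and the TATA box in 5 (13.6%). The endoplasmic reticulum stress element, which contains a CCAAT box, and the ATF4-CHOP composite site (TGATGCAA) were in none of them, and in 0.119% and 0.895% of all promoters. A match describes the letters only.

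Partners of Col4a5 did not pass the test. Col4a3 measured 6.20, 7.04, 5.88 and 6.53 CPM across the numbered WT libraries, and 5.60, 6.0003, 6.405 and 6.14 CPM across those of Wfs1KO. Col4a4 measured 3.42, 2.94, 2.97 and 2.01 CPM across the numbered WT libraries, and 2.77, 2.56, 3.17 and 1.98 CPM across those of Wfs1KO. The groups overlapped for both, with log2 fold changes of -0.09 (adjusted p = 0.648) and -0.11 (adjusted p = 0.779), and 563 bases of Col4a3 exons lie opposite exons of C430014B12Rik, whose reads the counting may not separate. Col4a6, the neighbour of Col4a5, was below the count filter at 0.210, 0.346, 0.203 and 0.344 CPM across the numbered WT libraries, and 0.490, 0.242, 0.519 and 0.594 CPM across those of Wfs1KO. The ratio of Col4a6 to Col4a5 per length was 0.0618 ± 0.0221 in WT and 0.215 ± 0.0773 in Wfs1KO (SD, n = 4), with no overlap, and the ratio of Col4a5 to Col4a1 was 0.0320 ± 0.00901 in WT and 0.0146 ± 0.00120 in Wfs1KO, also with no overlap. Both ratios hold the Col4a5 difference already given, and no test was run on them.

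The abundant basement membrane chains, Col4a1 and Col4a2, did not pass the test. Col4a1 measured 142, 133, 133 and 174 CPM across the numbered WT libraries, and 154, 136, 159.9 and 143 CPM across those of Wfs1KO. WT replicate 4 was the highest library and the groups overlapped, with a log2 fold change of 0.02 (95% interval -0.16 to 0.21, adjusted p = 0.883). Col4a2 measured 81.1, 73.9, 87.5 and 100.03 CPM across the numbered WT libraries, and 101, 92.3, 114 and 105 CPM across those of Wfs1KO. Its Wfs1KO libraries were above all WT libraries except replicate 4, and the log2 fold change of 0.26 (SE 0.09) missed the threshold, with an adjusted p of 0.0623 by edgeR. With the replicate number as a block the adjusted p of Col4a2 was 0.0107, by DESeq2 it was 0.0494, without WT replicate 4 it was 0.00984 and without Wfs1KO replicate 2 it was 0.0444. The ratio of Col4a2 to Col4a1 per length, which assemble as trimers of 2 Col4a1 chains and 1 Col4a2 chain, was 0.585, 0.571, 0.673 and 0.589 in WT replicates 1 to 4 and 0.669, 0.697, 0.731 and 0.750 in Wfs1KO replicates 1 to 4. Only WT replicate 3 reached the Wfs1KO range, and the means were 0.605 ± 0.0463 in WT and 0.712 ± 0.0358 in Wfs1KO (SD, n = 4).

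Types XV and XVIII, which carry glycosaminoglycan chains and sit at the outer face of basement membranes, did not pass the test. Col15a1 measured 20.2, 16.97, 18.9 and 23.9 CPM across the numbered WT libraries, and 24.8, 19.9, 21.8 and 23.9995 CPM across those of Wfs1KO. Its groups overlapped and the log2 fold change was 0.18 (adjusted p = 0.264). Col18a1, the source of the endostatin fragment, ranged from 3.84 to 7.02 CPM in WT and from 4.15 to 6.62 CPM in Wfs1KO (log2 fold change 0.16, adjusted p = 0.648). Summed over the 8 basement membrane genes, the level was 262, 243, 257 and 317 CPM in WT replicates 1 to 4 and 297, 265, 312 and 287 CPM in Wfs1KO replicates 1 to 4. The sums overlapped, with means of 270.04 ± 32.5 CPM in WT and 290.4 ± 19.8 CPM in Wfs1KO (SD, n = 4).

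Endothelial and pericyte markers moved with genotype while Col4a1 did not pass the test. Of all genes tested, 10.4% rose. The 14 endothelial markers summed to 678 to 768 CPM in WT and from 912 to 1078 CPM in Wfs1KO, and 12 of the 14 rose, with a median log2 fold change of 0.50. The 11 pericyte and smooth muscle markers summed to 239 to 270.3 CPM in WT and from 364 to 410.4 CPM in Wfs1KO, and 8 rose, with a median of 0.54. None of these markers was at 0 in all libraries, and both lists were higher in every Wfs1KO library than in any WT library. In bulk samples, a change in the number of cells of a type and a change in RNA per cell cannot be told apart. The part of these cells in the collagen values was not tested.

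**Figure D3:**
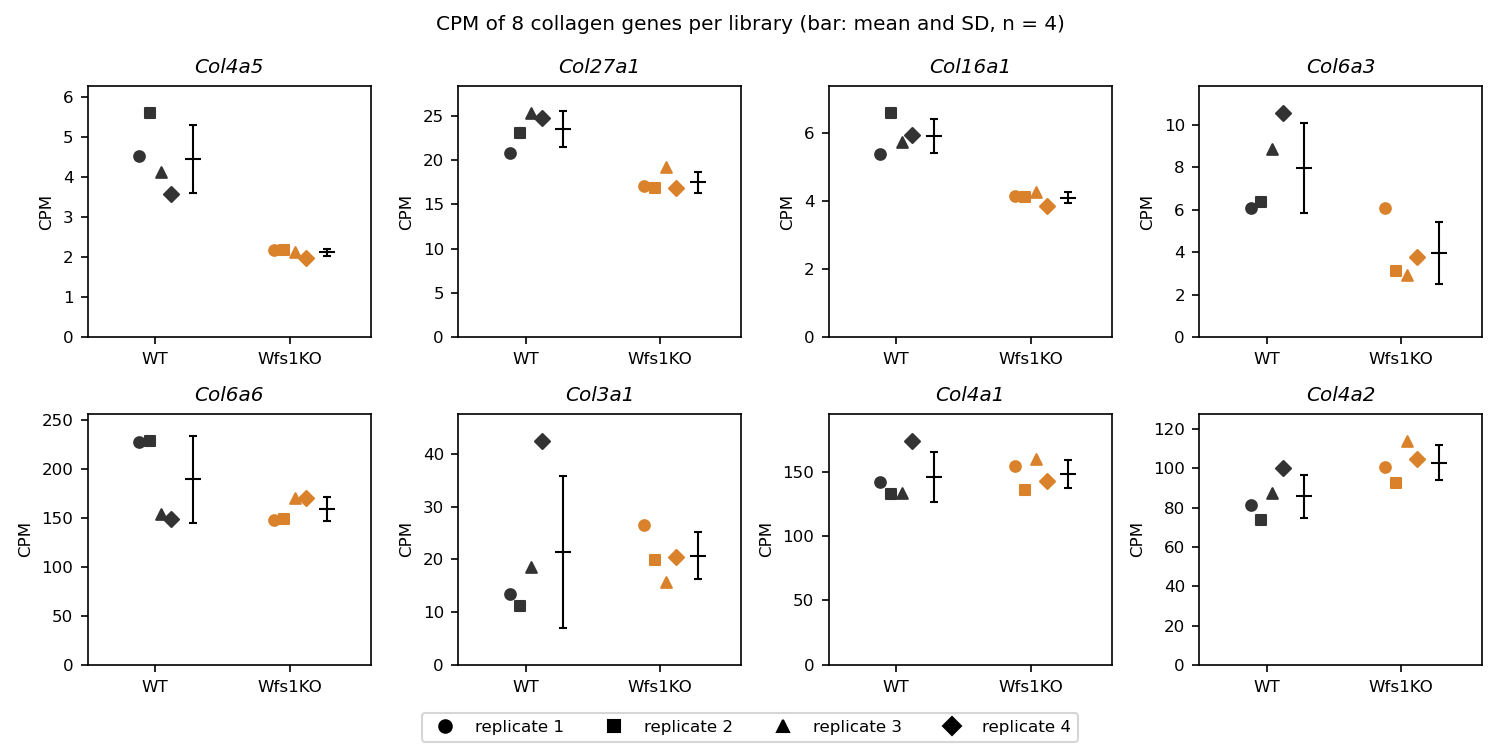
CPM of 8 collagen genes in each library, with 1 symbol per replicate number, and the mean and SD of 4 libraries beside the points. Col4a5, Col27a1, Col16a1 and Col6a3 have no overlap between genotypes, and Col6a6 is high only in WT replicates 1 and 2.

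Col27a1 was the fibrillar gene that fell. Its product forms thin fibrils and is best known from cartilage, and the gene lies on the + strand at chr4:63215412-63334990. It measured 20.8, 23.1, 25.3 and 24.8 CPM across the numbered WT libraries, and 17.1, 16.8, 19.3 and 16.8 CPM across those of Wfs1KO. All Wfs1KO libraries were below all WT libraries. The means were 23.5 ± 2.03 CPM in WT and 17.5 ± 1.19 CPM in Wfs1KO (SD, n = 4), and the log2 fold change was -0.43 (SE 0.08, adjusted p = 0.00181), with -0.39 in replicates 1 and 2 and -0.48 in replicates 3 and 4. Per length, Col27a1 was among the 3 highest fibrillar genes in WT.

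The chains of type I and type III collagen, the main fibril formers of connective tissue, did not pass the test between genotypes. Col3a1 measured 13.3, 11.1, 18.6 and 42.5 CPM across the numbered WT libraries, and 26.6, 19.8, 15.8 and 20.5 CPM across those of Wfs1KO. WT replicate 4 was the highest of the 8 libraries, WT replicates 1 and 2 the lowest, and the groups overlapped (log2 fold change -0.05, 95% interval -1.17 to 1.07, adjusted p = 0.957). Col1a1 measured 5.68, 4.62, 8.85 and 17.9 CPM across the numbered WT libraries, and 10.1, 7.36, 6.64 and 9.01 CPM across those of Wfs1KO. Col1a2 measured 11.5, 14.8, 17.1 and 28.9 CPM across the numbered WT libraries, and 23.1, 16.7, 18.8 and 18.5 CPM across those of Wfs1KO. For both, WT replicate 4 was the highest and WT replicates 1 and 2 the lowest, the groups overlapped, and the log2 fold changes were -0.16 (adjusted p = 0.851) and 0.09 (adjusted p = 0.873). The ratio of Col1a1 to Col1a2 per length was 0.427 ± 0.113 in WT and 0.378 ± 0.0490 in Wfs1KO (SD, n = 4), with overlap.

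Type V chains, which are built into type I fibrils and set their width, had a like pattern. Col5a1 measured 1.16, 1.15, 1.42 and 4.07 CPM across the numbered WT libraries, and 4.17, 2.13, 1.73 and 2.33 CPM across those of Wfs1KO. Col5a2 measured 2.84, 3.64, 4.19 and 6.72 CPM across the numbered WT libraries, and 6.34, 4.45, 4.33 and 4.35 CPM across those of Wfs1KO. WT replicate 4 and Wfs1KO replicate 1 were the 2 highest libraries for both, and neither gene passed the test (log2 fold change 0.41, adjusted p = 0.594, and 0.17, adjusted p = 0.703). Without WT replicate 4, Col5a1 was called higher at 1.08 (adjusted p = 0.0433, edgeR). The summed fibrillar level was 69.6, 77.5, 87.3 and 137 CPM in WT replicates 1 to 4 and 101, 80.8, 79.5 and 85.7 CPM in Wfs1KO replicates 1 to 4. WT replicate 4 stood above all others.

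The genotype effect on Col6a6 differed between the replicate pairs. It encodes a type VI chain that can take the place of the Col6a3 chain in beaded microfibrils, and it lies on the minus strand at chr9:105689417-105828085. It measured 228, 229, 154 and 149 CPM across the numbered WT libraries, and 148, 149, 170.2 and 171 CPM across those of Wfs1KO. WT replicates 1 and 2 were high and the other 6 libraries lay together between 148 and 171 CPM, so that the genotypes overlapped. Over all libraries the means were 189.95 ± 44.5 CPM in WT and 159 ± 12.7 CPM in Wfs1KO (SD, n = 4), and the log2 fold change was -0.25 (SE 0.16, adjusted p = 0.332).

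In replicates 1 and 2 alone the log2 fold change of Col6a6 was -0.64 (adjusted p = 1.44e-06), and in replicates 3 and 4 alone it was 0.16 (adjusted p = 0.130). The difference between the pairs was 0.79 on the log2 scale (SE 0.09, 95% interval 0.60 to 0.99, adjusted p = 0.00168, edgeR interaction term). It had the smallest p of all genes for this term, which called 19 of 15733 genes, or 0.121%. The pairs were known from earlier results of these data, so p-values of this term are not those of a split fixed beforehand. Exons of Gm38314 lie opposite 63 bases of Col6a6.

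The 250 bases before the RefSeq start of Col6a6 are shown because it was the only member called for a difference between the pairs. They lie at chr9:105828086-105828335, minus strand of GRCm38.p6, with 2 GC boxes in capitals, one of them reversed.
Col6a6 upstream: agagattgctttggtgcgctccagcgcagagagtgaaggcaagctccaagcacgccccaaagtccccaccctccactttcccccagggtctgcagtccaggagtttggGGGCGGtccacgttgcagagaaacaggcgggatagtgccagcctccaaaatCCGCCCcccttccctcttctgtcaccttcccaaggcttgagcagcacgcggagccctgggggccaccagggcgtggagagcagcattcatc
G and C made up 62.4% of these bases, and no CCAAT or TATA box was found in them.

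Col6a3 fell, while the 2 chains it assembles with did not pass the test. Col6a3 lies on the minus strand at chr1:90766860-90843971 and measured 6.10, 6.35, 8.85 and 10.6 CPM across the numbered WT libraries, and 6.06, 3.10, 2.94 and 3.76 CPM across those of Wfs1KO. Wfs1KO replicate 1 was close to the lowest WT libraries and the other 3 Wfs1KO libraries were well below. The means were 7.96 ± 2.13 CPM in WT and 3.96 ± 1.44 CPM in Wfs1KO (SD, n = 4), and the log2 fold change was -0.98 (SE 0.25, adjusted p = 0.0191). Leaving out WT replicate 3 ended the call (adjusted p = 0.0549), as did leaving out Wfs1KO replicate 2 (adjusted p = 0.0587). By pair, the log2 fold change was -0.44 in replicates 1 and 2 (adjusted p = 0.271) and -1.54 in replicates 3 and 4 (adjusted p = 4.16e-04), and the difference between the pairs did not pass (adjusted p = 0.279).

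Col6a1 measured 4.78, 4.79, 5.13 and 9.42 CPM across the numbered WT libraries, and 10.05, 7.06, 6.405 and 8.46 CPM across those of Wfs1KO. Col6a2 measured 3.57, 3.29, 4.52 and 7.46 CPM across the numbered WT libraries, and 6.72, 5.56, 3.98 and 6.73 CPM across those of Wfs1KO. For Col6a1, WT replicate 4 was in the Wfs1KO range and the other WT libraries were lower than every Wfs1KO library. For Col6a2, WT replicate 4 was above every Wfs1KO library and the groups overlapped. Their log2 fold changes were 0.40 (adjusted p = 0.275) and 0.29 (adjusted p = 0.510), and without WT replicate 4 Col6a1 was called higher at 0.72 (adjusted p = 0.00938, edgeR). Per length, the ratio of Col6a3 to Col6a1 was 0.465, 0.484, 0.629 and 0.409 in WT replicates 1 to 4 and 0.220, 0.160, 0.168 and 0.162 in Wfs1KO replicates 1 to 4. Every Wfs1KO library was below every WT library in this ratio, with means of 0.497 ± 0.0938 in WT and 0.177 ± 0.0285 in Wfs1KO (SD, n = 4). This ratio holds the Col6a3 difference already given, and no test was run on it. The ratio of Col6a1 to Col6a2 overlapped, at 1.22 ± 0.127 in WT and 1.32 ± 0.162 in Wfs1KO.

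Col16a1, which lies along the surface of fibrils, was the fourth gene that fell. It is on the + strand at chr4:130047840-130099277 and measured 5.36, 6.58, 5.74 and 5.94 CPM across the numbered WT libraries, and 4.13, 4.113, 4.27 and 3.86 CPM across those of Wfs1KO. The groups did not overlap and the spread within Wfs1KO was small. The means were 5.91 ± 0.510 CPM in WT and 4.09 ± 0.171 CPM in Wfs1KO (SD, n = 4), and the log2 fold change was -0.53 (SE 0.13, adjusted p = 0.00918). The size was alike in replicates 1 and 2 (-0.55) and 3 and 4 (-0.53), though with 2 libraries a group neither passed (adjusted p = 0.0709 and 0.107).

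Outside the fibrillar and basement membrane classes, Col13a1 and Col7a1 are also given in each library, chosen by mean CPM, which takes no account of gene length. Col13a1, a collagen held in the cell membrane that acts at the neuromuscular junction, measured 13.0, 14.6, 11.7 and 13.9 CPM across the numbered WT libraries, and 14.3, 16.3, 14.4 and 17.7 CPM across those of Wfs1KO. The groups overlapped slightly and the log2 fold change was 0.23 (adjusted p = 0.109). Col7a1, the collagen of anchoring fibrils in skin, measured 8.67, 9.005, 11.1 and 5.50 CPM across the numbered WT libraries, and 4.80, 5.27, 3.23 and 11.2 CPM across those of Wfs1KO. Wfs1KO replicate 4 was the highest of all libraries, just above WT replicate 3, and the other 3 Wfs1KO libraries the lowest (log2 fold change -0.48, adjusted p = 0.477). Without that library Col7a1 was called lower at -0.94 (adjusted p = 0.0152, edgeR). The remaining genes of this class that were tested ran from -0.39 (Col9a3) to 0.74 (Col12a1) in log2 fold change, and none passed.

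Calls were also counted within each replicate pair. In replicates 1 and 2 alone, 9 of 38 tested collagen genes rose and 6 fell, where 18% of all genes passed, 9.47% higher and 8.51% lower. The 9 were Col1a1, Col1a2, Col3a1, Col5a1, Col5a2, Col4a2, Col18a1, Col6a1 and Col6a2, and the 6 were Col4a5, Col27a1, Col11a2, Col6a6, Col7a1 and Col9a2. In replicates 3 and 4 alone, 0 of 36 rose and 3 fell (Col4a5, Col27a1 and Col6a3), where 12.2% of all genes passed, 6.35% higher and 5.81% lower. At an unadjusted p under 0.05 there were 19 collagen genes in the first pair and 8 in the second. The test of the difference itself called 1 of 37, Col6a6, and 10 at an unadjusted p under 0.05. The share of all genes at the unadjusted cut is not given here, so the unadjusted counts are not set against a background.

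Among the 3 classes, the fibrillar medians lay furthest apart between the pairs. The median log2 fold change of the 9 tested fibrillar genes was 0.59 in replicates 1 and 2 and -0.35 in replicates 3 and 4, and the difference between the pairs was negative for 8 of them. Col3a1 had 0.91 (adjusted p = 1.15e-04) in the first pair and -0.78 (adjusted p = 0.573) in the second, with a difference of -1.70 (95% interval -3.51 to 0.11, adjusted p = 0.475). For Col1a1 the values were 0.75 (adjusted p = 0.00695) and -0.80 (adjusted p = 0.419), with a difference of -1.56 (adjusted p = 0.394). With the replicate number as a block, the difference for Col1a1 passed, at an adjusted p of 0.0378 by edgeR, and it passed by DESeq2 at 0.0466. Col5a1 had 1.44 (adjusted p = 0.00425) and -0.48 (adjusted p = 0.598). The medians of the basement membrane genes were 0.06 and 0.03, and those of the others 0.12 and -0.19.

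**Figure D4:**
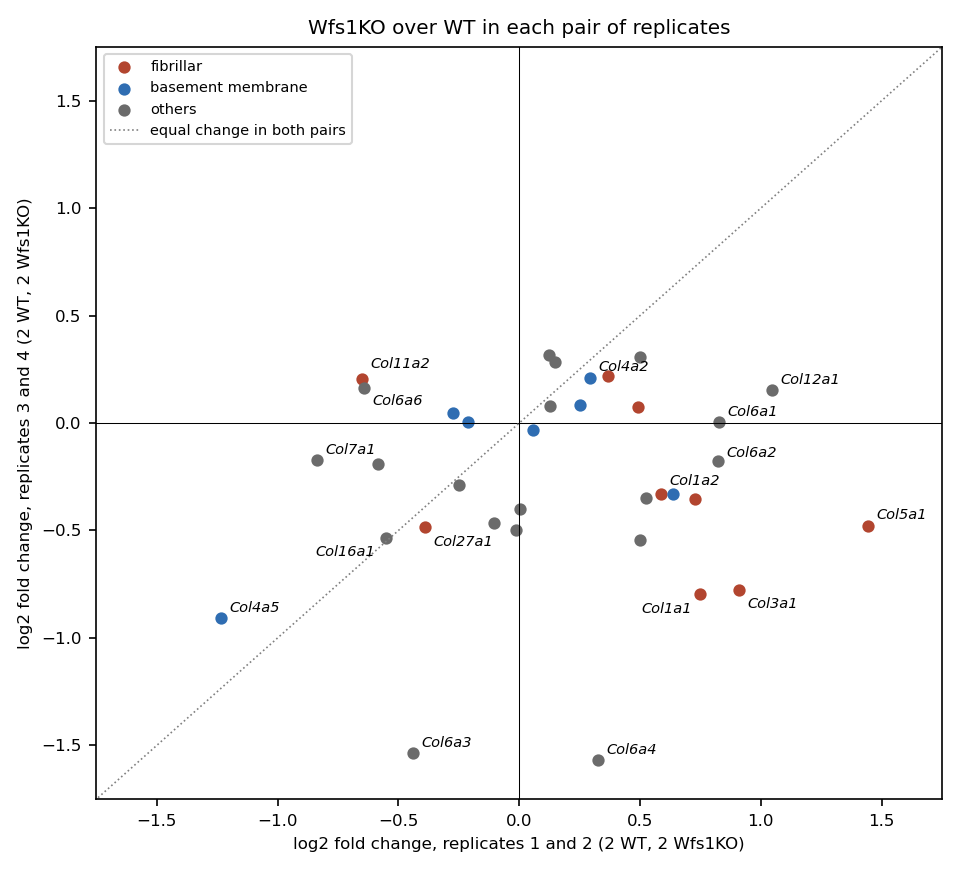
Log2 fold change (Wfs1KO over WT) of each collagen gene tested in both pairs, replicates 1 and 2 on the x axis and replicates 3 and 4 on the y axis, 2 against 2 libraries each. Col4a5, Col27a1 and Col16a1 lie near the line of equal change, while Col1a1, Col3a1 and Col5a1 are above 0 in the first pair and below 0 in the second, and Col6a6 the reverse.

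Markers of stellate cells and fibroblasts were high in 2 libraries. The 12 such markers, chosen without any collagen, summed to 17.7, 22.7, 19.0 and 25.4 CPM in WT replicates 1 to 4 and 78.3, 55.6, 16.3 and 24.4 CPM in Wfs1KO replicates 1 to 4. Wfs1KO replicates 1 and 2 were high and the other 6 libraries lay together. Over all libraries none of the 8 tested was called by edgeR, while DESeq2 called Thy1 higher. In replicates 1 and 2, 5 of 9 tested rose (median log2 fold change 1.05), and in replicates 3 and 4, 0 of 8 (median -0.29). WT replicate 4, the highest library for Col1a1 and Col3a1, had 25.4 CPM of these markers, against 17.7 to 22.7 CPM in the other WT libraries. Macrophage markers summed to 96.3 to 153 CPM in WT and from 105 to 232 CPM in Wfs1KO, with 0 called. Acinar markers ranged from 8042 to 57350 CPM over all libraries, with 1 of 10 called. Schwann cell markers had 1 of 10 called and ductal markers 2 of 7. The 7 beta cell markers all fell, and they summed to 140443 to 183788 CPM in WT and from 85518 to 107362 CPM in Wfs1KO. The part of these cells in the collagen values was not tested.

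**Figure D5:**
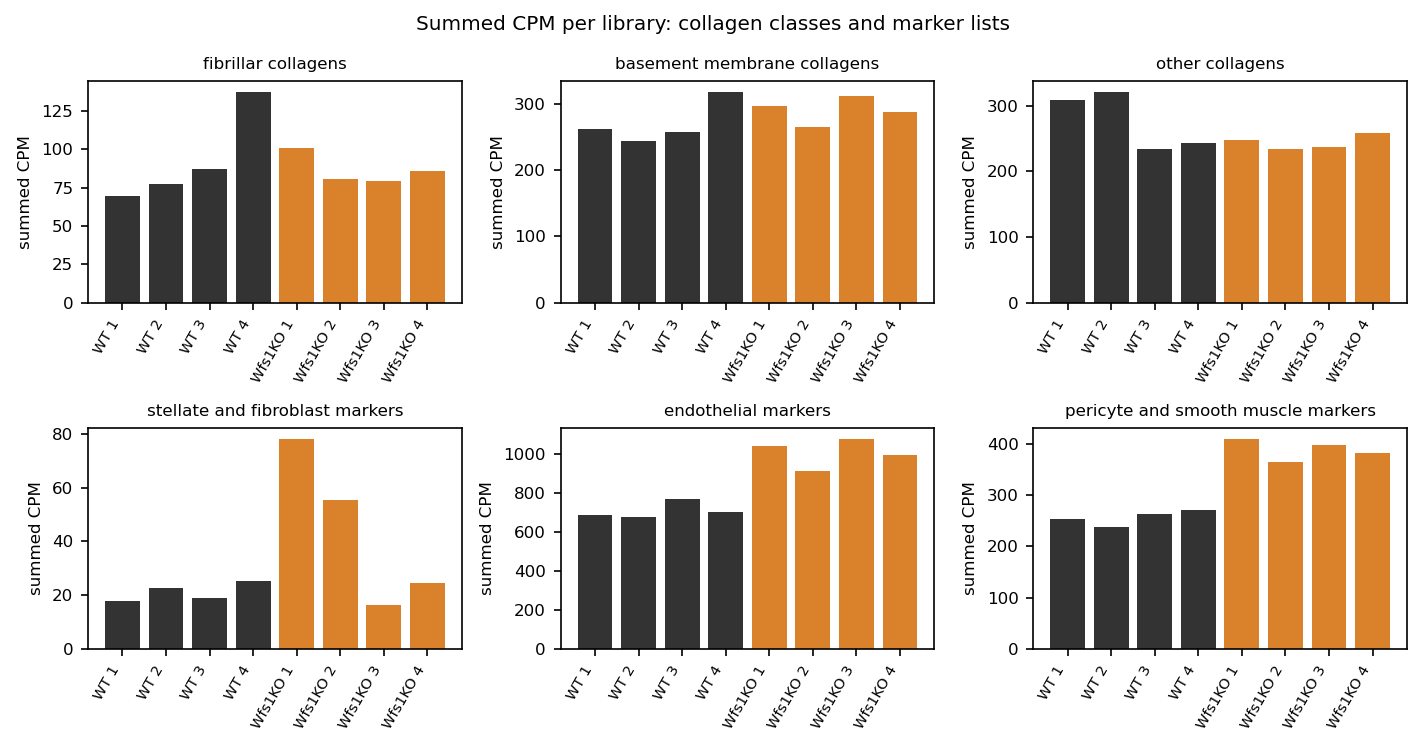
Summed CPM per library of the 3 collagen classes (upper row) and of stellate and fibroblast, endothelial, and pericyte and smooth muscle markers (lower row), with 1 bar per library, axes from 0. Fibrillar collagens are highest in WT replicate 4 (137 CPM), stellate and fibroblast markers in Wfs1KO replicates 1 and 2 (78.3 and 55.6 CPM), and endothelial and pericyte markers are higher in all Wfs1KO libraries.

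Among genes that modify, fold, export and crosslink collagen, 28 of 33 listed were tested, where 10.4% of all genes tested rose and 8.49% fell. In this list 11 rose (P4ha1, P4ha2, P4hb, P3h1, P3h2, P3h3, P3h4, Ppib, Colgalt2, Serpinh1 and Mia3), 2 fell (Bmp1 and Loxl2) and 15 did not pass, with a median log2 fold change of 0.12. P4hb, a disulfide isomerase that is also a subunit of prolyl 4-hydroxylase, averaged 888 ± 70.8 CPM in WT and 1317 ± 33.4 CPM in Wfs1KO (SD, n = 4, log2 fold change 0.57, adjusted p = 1.00e-04). Serpinh1, the collagen chaperone Hsp47, averaged 20.7 ± 1.07 CPM in WT and 29.1 ± 1.47 CPM in Wfs1KO (log2 fold change 0.49, adjusted p = 1.50e-04), and P3h4, a partner of lysyl hydroxylation, 42.9 ± 0.972 CPM in WT and 55.5 ± 1.65 CPM in Wfs1KO (log2 fold change 0.37, adjusted p = 1.85e-04). Neither overlapped between genotypes. P4hb also serves proteins other than collagen, as does the export factor Mia3. The Mia3 call was lost with the replicate number as a block (adjusted p = 0.0715) and when 1 of 6 single libraries was left out (WT replicates 2, 3 and 4, and Wfs1KO replicates 1, 3 and 4). Ppib was no longer called when 1 of 4 single libraries was left out (WT replicates 1, 2 and 4, and Wfs1KO replicate 4).

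Loxl2, which crosslinks type IV collagen, went the other way. It averaged 22.7 ± 2.35 CPM in WT and 12.8 ± 0.776 CPM in Wfs1KO (SD, n = 4), the log2 fold change was -0.83 (SE 0.09, adjusted p = 2.27e-05), and the groups did not overlap. Bmp1, the proteinase that trims the carboxyl ends of fibrillar procollagens, fell from 161 ± 15.5 CPM to 126 ± 6.04 CPM (log2 fold change -0.36, adjusted p = 0.00226). No gene of the list was called for a difference between the replicate pairs.

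Basement membrane genes other than collagens included 7 that rose (Lama3, Lama4, Lama5, Lamb2, Nid1, Nid2 and Agrn) among 16 tested, with a median log2 fold change of 0.24, where 10.4% of all genes tested rose. Lamb2, a laminin chain, averaged 19.6 ± 2.36 CPM in WT and 28.1 ± 3.45 CPM in Wfs1KO (SD, n = 4, log2 fold change 0.53, adjusted p = 0.00251). Nid1, which links laminin to type IV collagen, averaged 38.7 ± 2.51 CPM in WT and 48.5 ± 3.03 CPM in Wfs1KO (log2 fold change 0.33, adjusted p = 0.00287), and Agrn, a heparan sulfate proteoglycan, 31.1 ± 2.01 CPM in WT and 38.2 ± 3.19 CPM in Wfs1KO (log2 fold change 0.30, adjusted p = 0.00974). With the replicate number as a block, Lama4 lost its call (adjusted p = 0.0665) and Hspg2, perlecan, gained one (adjusted p = 0.0296). By DESeq2 neither Lama4, Nid2 nor Hspg2 was called. Lamb2 and Nid1 were also called in each replicate pair alone, and Agrn only in replicates 3 and 4.

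Collagen receptors included 4 that rose of 10 tested, where 10.4% of all genes tested rose. Itga1, whose product with integrin beta 1 binds type IV collagen, averaged 10.1 ± 0.462 CPM in WT and 14.7 ± 2.44 CPM in Wfs1KO (SD, n = 4, log2 fold change 0.54, adjusted p = 0.00399), and Ddr2, a tyrosine kinase receptor for fibrillar collagens, 3.53 ± 0.619 CPM in WT and 6.14 ± 1.39 CPM in Wfs1KO (log2 fold change 0.81, adjusted p = 0.00704). Itgb1 (log2 fold change 0.22, adjusted p = 0.0318) and Adgrg1 (log2 fold change 0.20, adjusted p = 0.0449) rose less. In replicates 1 and 2 alone Itgb1 and Ddr2 were called higher, where 9.47% of all genes rose. In replicates 3 and 4 alone only Itga1 was, where 6.35% of all genes rose. The Itgb1 call was lost on leaving out 1 of 6 libraries (WT replicates 1 and 2, and each of Wfs1KO), and the Adgrg1 call on leaving out 1 of 6 (WT replicates 1, 2 and 3, and Wfs1KO replicates 1, 3 and 4). With the replicate number as a block, Ddr1 was called lower (adjusted p = 0.0481). Of 8 tested genes of collagen breakdown, Timp3, an inhibitor of matrix metalloproteinases, rose from 135 ± 11.9 CPM to 186 ± 4.56 CPM (log2 fold change 0.47, adjusted p = 1.72e-04), and 7 did not pass.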

How the data were processed

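Islet RNA of 8 samples was counted per gene. The deposited counts are whole numbers per gene over exons, made by the authors with bcl2fastq, STAR 2.6.0a and HOMER 4.11.1 on mm10, per the submitters' processing notes; a strand option and the handling of reads that map to several places are not given in the sources used here. The authors' deposited table of log2 fold changes and p-values (DESeq2, per the submitters' processing notes) was read only for comparison. Genes with at least 10 counts in enough libraries (filterByExpr, total 15) were tested: 15733 genes, common biological variation 10.7%, edgeR 4.0.16 in R 4.3.3 with TMM, quasi-likelihood and Benjamini-Hochberg adjustment at 0.05. The genotype fit had no block. A second fit tested the interaction of genotype with replicate pair (1 and 2 against 3 and 4). This split was known from earlier results of these data and is not a labelled batch. Alternatives were DESeq2 1.42.0, limma 3.58.1 (voom), other filters and scalings, a replicate block, single pairs and leaving out each library. The edgeR genotype test was checked on simulated counts, and the interaction, single-pair and block fits were not.

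Members and lists were chosen with earlier results of these data known. Values are printed in every library for called collagen genes, the 3 highest by CPM of each class and their partner chains, and for up to 4 called genes with the smallest adjusted p of each pathway list as means. Col9a2, Col9a3, Col11a2, Col12a1, Col18a1 and the other called pathway genes were named after their values were seen. Same-numbered samples deviated together from their group means (correlations 0.153, 0.443, 0.269 and 0.188, with a prior count of 2). Each was above the threshold of 0.1 set for pairing, though no label says what the numbers share. With a pseudocount of 0.5 the first correlation was 0.0599. Only replicate 1 correlated best with its own number across genotypes, so the numbers are not shown to pair the samples. No 2 libraries of a group agreed within sampling noise. Sequences are from GENCODE M21 transcripts and RefSeq promoters on GRCm38.p6. One result of the list of other basement membrane genes is not reported here.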

Additional observations from a re-analysis of the deposited data

Results flagged for a closer look

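Groups of 4 libraries were examined by the gap to the nearest neighbour as a share of the range (Dixon's limit for 4 values). There were 46 groups, for the named collagen genes and for the sums of the 3 classes, which include those genes. In 4 groups 1 library lay far from the other 3, where chance gives about 1 in 20. These were Col5a1 in WT (WT replicate 4, 4.07 CPM), Col6a1 in WT (WT replicate 4, 9.42 CPM), Col5a2 in Wfs1KO (Wfs1KO replicate 1, 6.34 CPM) and Col27a1 in Wfs1KO (Wfs1KO replicate 3, 19.3 CPM). The 2 WT values belong to the same library, which was also the highest for Col1a1, Col1a2 and Col3a1. The Col27a1 value was still below every WT library.

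The split into replicate pairs was known from earlier results of these data, so p-values for it are not those of a split fixed beforehand. In a test of the difference itself, the genotype effect on Col6a6 differed by 0.79 in log2 (replicates 3 and 4 minus 1 and 2). Its adjusted p stayed under 0.05 in the 8 fits that each left out 1 library and in every other alternative run for it.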

How the results depend on the processing

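The count of 4 collagen genes lower held at 3 to 5 when each library was left out and at 3 to 6 under the other alternatives. The genes counted changed in the pairs. Of the 4, only Col4a5 and Col27a1 were also called in each replicate pair alone. The count higher, 0 in the reported fit, was 1 by DESeq2, 1 with the replicate block, 1 with the replicate pair as a term, 9 in replicates 1 and 2 alone, and 0 to 3 when each library was left out. Its highest value was without WT replicate 4 (Col4a2, Col5a1 and Col6a1), and it was 1 without Wfs1KO replicate 2 (Col4a2) or 3 (Col12a1). In replicates 3 and 4 alone, genes called numbered 1846 (2970 in all libraries) and collagen-processing genes higher 7 (11). Calls for the difference between replicate pairs were 19 for all genes, 81 by DESeq2 and 5 to 51 with 1 library left out, and for collagen genes 1, with 2 by DESeq2, 2 with the replicate block (Col6a6 and Col1a1) and 1 to 4 with 1 library left out. The highest was without WT replicate 3, which added Col1a1, Col3a1 and Col5a1; these leave-one-out and block fits of the difference, and the class sums on DESeq2 size factors, were chosen after seeing the data. The log2 ratio of mean summed CPM was -0.10 for fibrillar genes, 0.30 in replicates 1 and 2 alone, -0.44 in replicates 3 and 4 alone and -0.22 to 0.15 with 1 library left out. For the others it was -0.18, with -0.39 and 0.051 in the pairs and -0.25 to -0.10 with 1 library left out. Col6a6 held most of that sum, with means of 190 of 277 CPM in WT and 159 of 244 CPM in Wfs1KO. For the 24 genes without Col6a6 the log2 ratio was -0.037. Their sums were 81.6, 91.4, 80.8 and 93.7 CPM in WT replicates 1 to 4 and 99.7, 85.3, 66.8 and 87.0 CPM in Wfs1KO replicates 1 to 4. Col1a1 (0.75) and Col3a1 (0.91) changed sign to called higher in replicates 1 and 2 alone. The causes were not tested. Beyond Col4a2, the receptor and basement membrane genes and Mia3 and Col1a1 given with their blocked values, the replicate block changed no call of a gene named with its values. Depth limits the 7 untested genes, Col4a6 among them, at no more than 0.770 CPM.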
